A study of Rattus norvegicus with 42 samples.

Results

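Transcription start sites of the rat soleus were compared between animals that had walked again for 3 days after 7 days of hindlimb unloading (R3) and control animals that were never unloaded. The comparison takes in every TSS peak of the deposited table outside the mitochondrial chromosome, 9969 of 9971 peaks, in 3 R3 libraries (animals U4, U5 and U16) and 3 control libraries (U6, U7 and U8). All animals were mature Wistar rats, the controls moved freely in their cages, and each library came from the soleus of 1 rat. The R3 rats were hung by the tail for 7 days and then released into the cage. The series holds 42 libraries in all: soleus and EDL from 21 rats, with 3 rats in each of 7 groups, which are the control, unloading for 1 day (D1), 3 days (D3) or 7 days (D7), and recovery for 1 day (R1), 3 days (R3) or 7 days (R7) after 7 days of unloading.

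The soleus is a slow postural muscle of the calf that carries body weight almost without pause. It loses mass quickly when the hindlimbs no longer touch the ground, and it regrows when load returns, a phase in which damage repair, inflammation, matrix remodelling and the rebuilding of contractile proteins are known to overlap. CAGE (cap analysis of gene expression) sequences the capped 5′ ends of RNAs, so each tag is taken to mark the position where a transcript began (a CTSS). A TSS peak is a cluster of such positions on 1 strand, read as the footprint of a promoter or of another start region. The files give peaks by position on Rnor_6.0 and not by gene, and no annotation of that build was used here, so peaks are named below by position and strand. Markers of muscle fibres and of other cell types could therefore not be looked up, and in a bulk muscle sample fewer cells of a type and less RNA per cell cannot be told apart.

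The control libraries held 16652474, 11577496 and 7799116 tags (U6, U7 and U8), and the R3 libraries held 7628300, 16552217 and 8973186 tags (U4, U5 and U16). A library stood apart in each group. In control U7, 25.4% of tags lay at positions seen only once, and in R3 U16 it was 19.5%, against 4.15% to 7.66% in the other 4 libraries. The lanes in the deposited file names split the groups completely: the controls were all in lane 1, R3 U4 was in lane 4, and R3 U5 and U16 were in lane 5. Recovery and lane cannot be told apart within soleus, because no lane held a soleus library of both kinds. Over all tested peaks, the soleus R3 libraries correlated with each other at r between 0.939 and 0.964 and the controls at r between 0.943 and 0.971, while pairs across the groups ranged from 0.890 to 0.943 (log2 CPM, a description across peaks). The library most like each of the 6 was a soleus library.

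At R3, 163 peaks differed from the control (1.66% of the 9840 peaks that passed the filter on low counts). A total of 120 were higher (1.22%) and 43 were lower (0.437%). Calls needed an adjusted p under 0.05 in edgeR's quasi-likelihood test, fitted over all 21 soleus libraries, and a fold change over 2.38 in either direction. Higher peaks rose from a median level of 5.73 CPM (tag counts relative to library size, scaled by TMM) in the control to 19.99 CPM at R3, and lower peaks fell from a median of 19.4 to 6.70 CPM. In every one of the 163 the R3 libraries all lay on 1 side of the control libraries, a separation that 30.3% of the tested peaks showed. Summed over the 120 higher peaks, the controls held 2160, 2522 and 2542 CPM (U6, U7 and U8) and the R3 libraries 10515, 6312 and 6533 CPM (U4, U5 and U16). Summed over the 43 lower peaks, the controls held 9677, 7548 and 8133 CPM and the R3 libraries 3224, 3390 and 2506 CPM. R3 U4 was the highest R3 library in 88 of the 120 rises and U5 the lowest in 80.

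The count of calls depended on single libraries. The adjusted p-values of the called peaks lay between 0.0167 and 0.0499. Leaving out control U6, control U8 or R3 U4 left 0 calls by edgeR's quasi-likelihood test, with 1327, 1792 and 1424 peaks at an unadjusted p under 0.05. Without control U7 there were 25 calls, 16 higher and 9 lower. Without R3 U16 there were 61, of which 59 were higher and 2 lower. Without R3 U5 there were 160, 141 higher and 19 lower, and 110 of them were among the 163. In each of these 6 fits all 163 peaks kept their direction, which was nearly fixed in advance. In all 163 the R3 libraries lay on 1 side of the controls, and leaving out 1 library does not change that. The choice of libraries in the fit also changed the count. With only the 6 libraries compared there were 0 calls by edgeR's quasi-likelihood test, with 2546 peaks at an unadjusted p under 0.05. A fit of all 42 libraries without lane gave 20 calls, and the same fit with lane as a term gave 0, with 316 peaks at an unadjusted p under 0.05 and 155 of the 163 in their direction. From the soleus fit to the fit of all 42 libraries with lane, the fold change of 74 of the 163 moved by more than 1.5 times. The median SE over the 163 went from 0.40 to 1.1 on the log2 scale. Both the libraries and the lane term differed between these fits. DESeq2 called 400 peaks (4.07%), and all 163 were among them. With the total of each library in place of TMM scaling, the split of calls was 151 higher and 8 lower, against 120 and 43, and the centre of all tested peaks, their median log2 fold change, moved from 0.00 to 0.20.

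**Figure D1:**
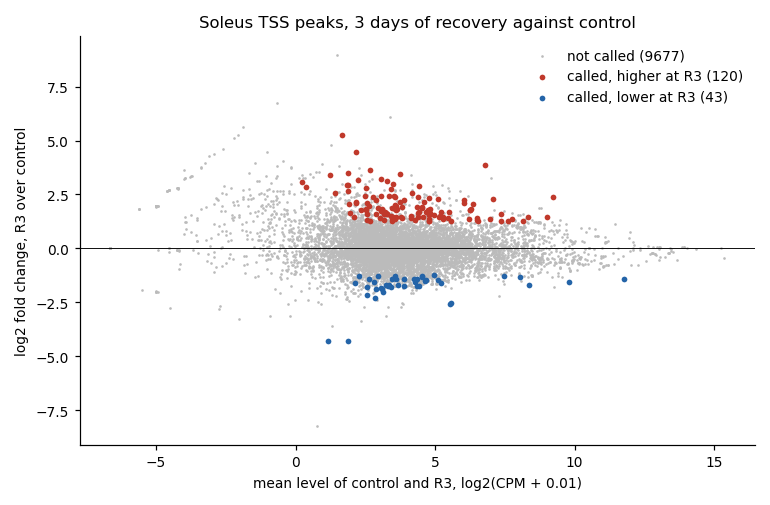
Mean level (horizontal axis, log2 CPM with 0.01 added) and log2 fold change of R3 over control (vertical axis) for the 9840 tested soleus peaks. The 120 called rises in red and the 43 called falls in blue span most of the range of levels, and the cloud of all peaks is centred on 0.00.

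The 12 largest rises among the called peaks with at least 10 CPM in a group had log2 fold changes from 2.41 to 3.86. The largest was chr1:254735508-254735753 on the minus strand. It gave 25.8, 3.21 and 12.9 CPM in the controls and 292, 36.8 and 288 CPM at R3 (U4, U5 and U16). The groups did not overlap, but R3 U5 was close to control U6 (log2 fold change 3.86, SE 0.78, n = 3 and 3, adjusted p = 0.029 in edgeR's quasi-likelihood test). With lane in the fit of all 42 libraries its log2 fold change was 1.03 (SE 3.25). Its tags started at the same base, position 254735553, more often than at any other in all 6 libraries. Its level was 2.70 ± 1.97 CPM at D1 and 3.81 ± 2.28 CPM at D7 (SD, n = 3) and reached 543 ± 189 CPM at R1 and 492 ± 155 CPM at R7.

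Another rise followed a different course. The peak chr10:85548222-85548506 on the minus strand held 3.76, 1.54 and 2.82 CPM in the controls and 22.8, 8.52 and 24.8 CPM at R3. Its log2 fold change was 2.75 (SE 0.73), and 1.57 (SE 1.77) with lane in the fit. At R1 the peak stood at 1.03 ± 0.73 CPM (SD, n = 3), within 0.348 to 1.79 CPM, against 1.54 to 3.76 CPM in the controls. Of the 120 rises, this peak and chr1:264609998-264610021 on the minus strand were the ones with a negative log2 fold change at R1. In EDL the same peak held 57.3, 37.5 and 48.8 CPM in the controls and 107, 72.4 and 76.2 CPM at R3.

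The remaining named rises started from 0.962 to 5.28 CPM in the control. The peak chr10:15449863-15449891 on the minus strand, 29 nt wide, went from 4.41, 5.79 and 5.37 CPM to 58.4, 41.2 and 14.2 CPM. The peak chr18:47512982-47513550 on the minus strand went from 1.08, 2.70 and 2.96 CPM to 31.2, 5.47 and 36.2 CPM. In both, all R3 libraries were above the controls, and the R3 libraries differed among themselves several-fold. The same spread was seen in chr2:18587016-18587429 on the minus strand, with 3.54, 3.73 and 3.36 CPM in the controls and 15.7, 9.45 and 32.6 CPM at R3. With lane in the fit of all 42 libraries, this last peak had a log2 fold change of −0.13 (SE 1.28). Those before it had 1.96 (SE 1.39) in place of 2.88 and 2.14 (SE 2.46) in place of 3.46.

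**Figure D2:**
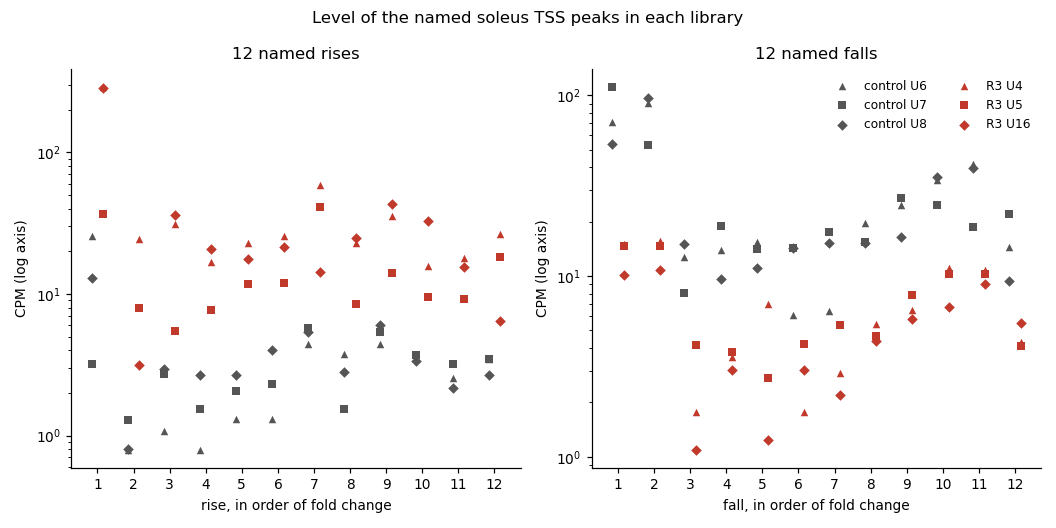
Level in CPM (log axis) of the 12 named rises (left) and the 12 named falls (right) in each of the 6 soleus libraries, in order of fold change; each point is 1 library, grey for control and red for R3. Groups that do not overlap were a condition for naming these 24 peaks, and 30.3% of all tested peaks have them. The R3 libraries are more spread in the rises than in the falls. In rise 1, R3 U4 at 292 CPM lies under R3 U16 at 288 CPM.

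The 12 largest falls among the called peaks with at least 10 CPM in a group had log2 fold changes from −1.73 to −2.56. The peak chr4:100465147-100465397 on the plus strand held 71.4, 111 and 54.0 CPM in the controls and 15.1, 14.7 and 10.1 CPM at R3 (log2 fold change −2.56, SE 0.49, adjusted p = 0.0246 in edgeR's quasi-likelihood test). The peak chr4:14002946-14003254 on the plus strand held 91.1, 53.4 and 96.6 CPM against 15.6, 14.7 and 10.8 CPM (log2 fold change −2.55, SE 0.47). With lane in the fit of all 42 libraries the values were −3.42 (SE 1.1) and −1.44 (SE 0.98). The R3 libraries agreed closely in both. Their courses through the phases were not the same: the first was at 19.3 ± 3.32 CPM at D7, before any recovery. The second was at 116 ± 6.73 CPM at D1, 28.4 ± 18.3 CPM at D3, below every control, and 59.7 ± 7.60 CPM at D7 (SD, n = 3).

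Among the other falls, chr1:46883359-46883486 on the plus strand held 19.7, 15.4 and 15.3 CPM in the controls and 5.44, 4.66 and 4.38 CPM at R3. Its log2 fold change went from −1.80 to −0.38 (SE 0.87) with lane in the fit. The peak chr2:197813816-197813935 on the minus strand fell from 12.7, 8.10 and 15.05 CPM to 1.77, 4.17 and 1.096 CPM. With lane in the fit its log2 fold change was 0.044 (SE 1.03). A wide peak of 3078 nt, chr9:10966086-10969163 on the plus strand, fell from 13.9, 18.9 and 9.67 CPM to 3.54, 3.79 and 3.01 CPM. Its log2 fold change was −2.02, and −1.0 (SE 1.06) with lane in the fit. Its tags were scattered: the most frequent start base held 4 of 192, 3 of 147 and 2 of 72 tags in the controls. That base was a different one in each library, so this peak may not be a single start region.

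Each of the 29 peaks chosen for their fold change or start usage kept its direction when any 1 of the 6 libraries was left out, and each lost its call in at least 1 of those fits. The groups did not overlap in these peaks, so the direction was nearly fixed in advance. The rule for naming favours peaks of low level. A total of 26 called peaks passed 100 CPM in a group mean, and those of highest level are given here by level, a choice made after their values were seen. The peak chr16:6962574-6963118 on the plus strand was the highest rise, with 169, 161 and 257 CPM in the controls and 1577, 477 and 967 CPM at R3 (5.14-fold, log2 fold change 2.36, SE 0.46). It peaked at R1, at 2597 ± 695 CPM, and was at 981 ± 72.7 CPM at R7 (SD, n = 3). The second highest rise, chr3:117510442-117510585 on the plus strand, went from 282, 302 and 261 CPM to 1039, 832 and 410 CPM, a 2.70-fold change. Its log2 fold change was 1.43, and 0.78 (SE 0.85) with lane in the fit.

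A fall of high level was among the called peaks with the smallest adjusted p. The peak chr16:22561253-22561765 on the minus strand held 459, 514 and 540 CPM in the controls and 131, 153 and 176 CPM at R3 (3.29-fold lower, log2 fold change −1.72, SE 0.28, adjusted p = 0.0167 in edgeR's quasi-likelihood test). With lane in the fit its log2 fold change was −0.86 (SE 0.73). It was at 124 ± 3.91 CPM at R1 and 149 ± 71.8 CPM at R7, and between 223 and 327 CPM on average during unloading. The peak chr5:148528613-148529082 on the plus strand fell from 1479, 1268 and 1239 CPM to 656, 317 and 392.2 CPM. Both peaks used the same most frequent start base in all 6 libraries.

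Some called peaks were neighbours. A total of 22 of the 163 formed 11 runs in which called peaks of 1 strand followed each other within 5 kb, and in all 11 runs the members moved in the same direction. Neighbours often shared a sign without regard to calls: of 1795 pairs of adjacent tested peaks of 1 strand within 5 kb, 80.3% had the same sign. A tested neighbour on the same strand within 5 kb was present for 26.4% of the 163 and 25.8% of all tested peaks. On chromosome 16, chr16:6964288-6964972 rose by 2.36 on the log2 scale, as did its larger neighbour chr16:6962574-6963118 upstream on the same strand. On chromosome 13, chr13:67677226-67678291 and chr13:67678509-67679087 on the minus strand rose by 2.55 and 2.79. On chromosome 4, chr4:14005725-14005874 fell by 4.29 beside chr4:14002946-14003254, with 2, 6 and 3 tags at R3 (U4, U5 and U16). With lane in the fit the value of chr4:14005725-14005874 was 0.56 (SE 1.27).

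A stretch of chromosome 17, from 43616154 to 44834409, was singled out after its values were seen because it held 5 calls, more than any other stretch of called peaks less than 1 Mb apart. It held 41 tested peaks, 22 on the plus and 19 on the minus strand, and 39 of them had a positive log2 fold change at R3, against 50.3% of all tested peaks. Every R3 library was above every control in 37 of the 41 peaks (15.4% of all tested peaks), and the 5 calls that marked out the stretch are among the 37. The median log2 fold change of the 41 was 2.24. Summed over the stretch, the controls held 513, 643 and 845 CPM (U6, U7 and U8) and the R3 libraries 2494, 1352 and 2490 CPM (U4, U5 and U16), so each R3 library was above each control. During unloading the sums were 1208, 1323 and 862 CPM at D1, each above every control, 798 to 1162 CPM at D3 and 655 to 970 CPM at D7. They were 1037 to 1781 CPM at R1. At R7 they were 4025, 2039 and 831 CPM, and the lowest of these fell within the range of the controls. In EDL, 39 of 39 tested peaks of the stretch had a positive log2 fold change (48.7% of the peaks tested in both muscles), but the EDL sums at R3 were 4326 CPM in U4 and 787 and 953 CPM in U5 and U16, against 524 to 585 CPM in the EDL controls. A single animal therefore carried most of the EDL change in this stretch. The called members with the largest soleus changes were chr17:43617086-43617243, chr17:43616154-43616260 and chr17:43779205-43779267 on the plus strand and chr17:44834125-44834409 on the minus strand (log2 fold changes 3.61, 3.14, 2.98 and 3.21). With lane in the fit of all 42 libraries these were 2.73 (SE 2.44), 2.99 (SE 2.43), 2.39 (SE 2.46) and 4.43 (SE 2.34). The remaining call, chr17:44522021-44522206 on the plus strand, went from 1.82 to 1.01 (SE 1.24). The peak chr17:44738300-44738435 on the minus strand had a log2 fold change of 3.01 (SE 0.84) and did not pass the test (adjusted p = 0.0593 in edgeR's quasi-likelihood test).

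The minus strand of chromosome 2 from 88126565 to 88135585 went the other way. It held 7 peaks, each within 5 kb of the next, and the R3 libraries were below every control in all 7 (14.9% of all tested peaks), with log2 fold changes from −1.30 to −1.80. Only 2 passed the thresholds, chr2:88132062-88132165 and chr2:88135192-88135585. The latter was the most abundant of all called peaks, at 5073 CPM on average in the control and 1892 CPM at R3. Summed over the 7 peaks, the controls held 7187, 5830 and 5615 CPM, and the R3 libraries 2211, 2642 and 1840 CPM. The sums were already below every control at D7, at 2518, 2658 and 3372 CPM, after 5676 to 9845 CPM at D1 and 2578 to 5628 CPM at D3. The R1 libraries held between 719 and 1619 CPM. At R7 the sums had a mean of 4292 ± 1693 CPM (SD, n = 3). In EDL all 7 peaks had a positive log2 fold change at R3 (median 0.90), from a level far below that of soleus: 292 to 472 CPM in the EDL controls and 401 to 845 CPM at R3, which overlapped. For chr2:88135192-88135585, the soleus change minus the EDL change was −2.15 on the log2 scale (unadjusted p = 0.000357, adjusted p = 0.884 in edgeR's quasi-likelihood test of the interaction), and it did not pass the correction over all peaks.

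**Figure D3:**
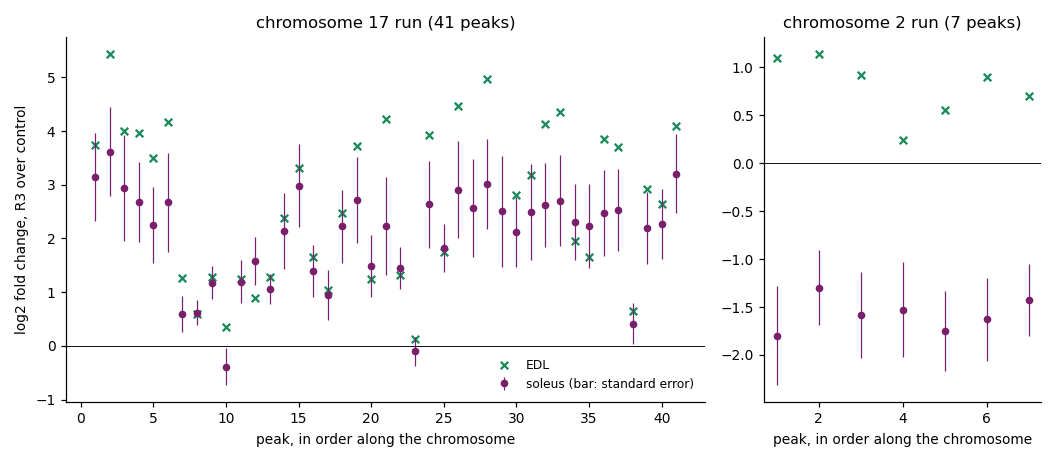
Log2 fold change of R3 over control for the 41 tested peaks of the chromosome 17 stretch (left) and the 7 peaks of the chromosome 2 stretch (right), in order along the chromosome; circles are soleus with the standard error as a bar, crosses are EDL. In the chromosome 17 stretch 39 soleus peaks are above 0, and in the chromosome 2 stretch all 7 are below 0 in soleus and above 0 in EDL.

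The called rises included more narrow peaks than the table as a whole. Of the 120 rises, 23 (19.2%) were at most 50 nt wide, against 5.11% of all tested peaks and 0 of 43 falls. The cut at 50 nt was set after the widths were seen. Median widths were 179.5 nt in the rises, 244 nt in the falls and 208 nt in all tested peaks. In 29.2% of the rises more than 50% of the soleus tags started at a single base, against 6.98% of the falls and 12.99% of all tested peaks. Narrow peaks as a class also leaned upward: 65.4% of the 503 narrow peaks had a positive log2 fold change at R3 (median 0.36), against 49.4% of the wider ones. In libraries that the comparison did not use, 63.8% of the narrow peaks and 50.3% of the wider ones were higher at R7 than at D7. The R7 and D7 libraries were also in different lanes. In EDL at R3 the median log2 fold change was 0.45 for the narrow peaks and −0.03 for the wider ones.

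Examples of abundant narrow rises were chr1:93242019-93242052 on the plus strand, 34 nt wide, which went from 171 to 468 CPM on average, and chr11:82369336-82369354 on the minus strand, 19 nt wide, which went from 31.9 to 133 CPM. In the latter, 85.2% of the soleus tags started at 1 base. The narrowest was chr9:10827109-10827113 on the minus strand, with 5 nt.

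**Figure D4:**
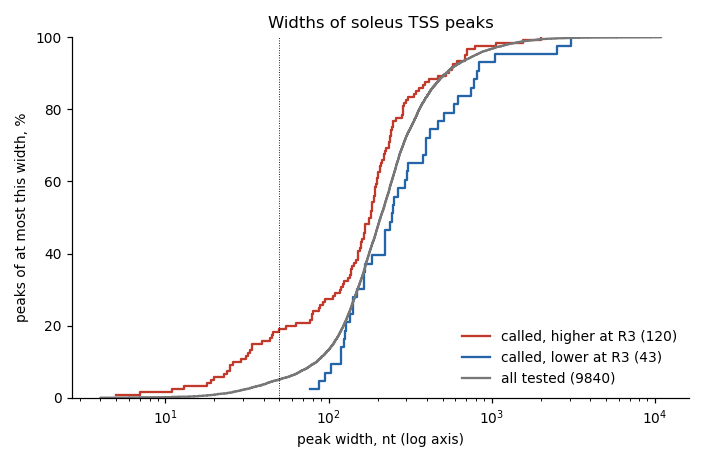
Share of peaks (vertical axis, %) that are at most as wide as the value on the horizontal axis (nt, log axis) for the 120 called rises, the 43 called falls and all 9840 tested soleus peaks. At the dotted line at 50 nt the rises are at 19.2%, all tested peaks at 5.11% and the falls at 0.

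The counts of some called peaks could not be told from those of another peak. The study's methods let a read map to several places, and 13 of the 163 called peaks (11 rises and 2 falls) had a counterpart elsewhere in the genome whose counts over the 42 libraries differed from theirs by no more than about the sampling noise (chi-square per degree of freedom under 1.5) and whose profile of start positions was the same (r over 0.99). This held for 5.91% of all tested peaks with at least 1000 tags. Examples among the named falls were chr2:195405603-195405690 and chr2:196094719-196094813 on the plus strand (log2 fold changes −1.86 and −1.90). With lane in the fit these were 0.53 (SE 1.16) and 1.01 (SE 1.15). Among the rises, chr1:194769373-194769609 and chr1:198045040-198045230 on the minus strand (2.25 and 2.14) were another pair. Such a pair is uncertain as to which copy was transcribed, and its members are not independent calls.

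Shifts between neighbouring starts were tested separately. Peaks of a strand within 5 kb were joined into 742 groups of 2537 peaks, and the share of the group that each peak held was compared between R3 and control with edgeR's diffSpliceDGE. The share changed for 6 peaks (0.236% of those tested). The only fall in share was chr4:14005725-14005874 on the plus strand, which held 4.32%, 2.23% and 2.43% of its 3-peak group in the controls and 0.148%, 0.385% and 0.607% at R3 (adjusted p = 0.0418 in edgeR's diffSpliceDGE). Its R3 shares rest on 2, 6 and 3 tags (U4, U5 and U16). In the same group the peak chr4:14001431-14002064 went from 141 to 97.9 CPM on average, which did not pass the test. The peak chr2:227207139-227207428 on the minus strand rose from 0.205%, 0.110% and 0.154% to 0.372%, 1.36% and 0.691% of its group, which is led by chr2:227207488-227207737, at 1373 CPM in the control and 1220 CPM at R3.

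The other 4 peaks with a changed share were chr5:91134576-91134817, chr14:46633746-46634431 and chr1:11962875-11963576 on the plus strand and chr1:11913963-11915515 on the minus strand, the last of which is outside the naming rule. They lay in groups of very high level, from 40075 to 117393 CPM in the control, and held from 0.00804% to 0.124% of them. In each of these groups 4 to 7 peaks had a near-identical counterpart of the kind described above, so the group totals behind these shares are uncertain. The peaks chr14:46633746-46634431 and chr1:11962875-11963576 themselves had such a counterpart, and the other 2 had none. The counterpart of the former was the latter, so their 2 calls are not independent. Leaving out 1 library gave 1 call without control U6 or U7, 3 without R3 U4 or U5, 4 without control U8, and 10 without R3 U16. The most frequent start base was the same in all 6 libraries in 44.2% of the rises, 46.5% of the falls and 42.7% of all tested peaks. In some named peaks it differed between the groups, which was not tested. In chr4:100465147-100465397, base 100465339 led in every control with 49.8% to 53.5% of tags. At R3 it led in U5 with 27.8%, and base 100465217 led in U4 and U16. In chr5:91134576-91134817 and chr2:227207139-227207428, bases 91134786 and 227207354 led in every R3 library and in no control, where tags were few.

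The peaks called at R3 were followed through the other phases. These comparisons share the control libraries with the R3 comparison, so the values are given side by side as a description. The 120 rises had a median log2 fold change against control of 0.43 (D1), 0.43 (D3), 0.08 (D7), 2.05 (R1), 1.79 (R3) and 1.5 (R7). The 43 falls had medians of −0.27, −0.65, −0.24, −1.76, −1.60 and −1.47 in the same order. The medians of all tested peaks lay between −0.03 and 0.05 in these 6 comparisons. By group means, 55 rises were highest at R1, 52 at R3 and 13 at R7, and 25 falls were lowest at R1, 10 at R3 and 8 at R7. The peaks were chosen on their R3 and control values, which favours R3 in these counts. The counts are given without the share over all tested peaks, so they do not show in which phase the response was largest.

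A comparison of R7 with D7 uses none of the R3 or control libraries, and it was added after the data were seen. Of the 120 rises, 58 (48.3%) were also called higher at R7 than at D7, against 6.79% of all tested peaks. Of the 43 falls, 20 (46.5%) were called lower, against 4% of all tested peaks, and 0 of the 163 were called in the opposite direction. The fits share the estimate of spread, and the R7 libraries were in lanes 5 and 6 while the D7 libraries were in lane 3, so recovery and lane cannot be told apart here either. Leaving out 1 library at a time gave 52 to 93 of the 163, and with lane as a term in a fit of all 42 libraries it was 4. The peak chr1:254735508-254735753 had the largest change of the 12 named rises (log2 7.07, adjusted p = 0.000307 in edgeR's quasi-likelihood test), whereas chr13:67677226-67678291 did not pass (log2 0.03).

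**Figure D5:**
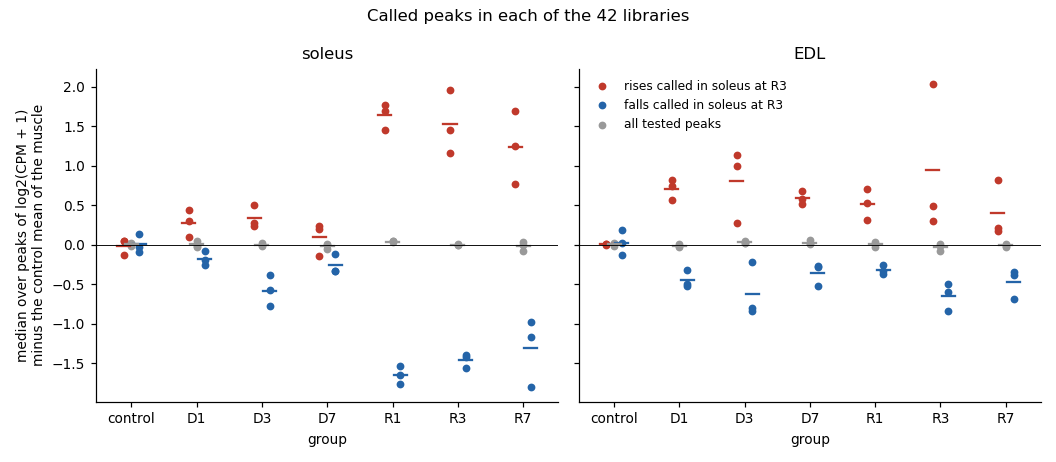
Median over the peaks called in soleus at R3 of log2(CPM + 1) minus the control mean of the same muscle (vertical axis), in each of the 42 libraries by group (horizontal axis); red for rises, blue for falls, grey for all tested peaks, with a bar at the mean of the 3 libraries. In soleus the rises are at 1.16 to 1.97 at R3 and at −0.15 to 0.24 at D7, and in EDL at R3 a single library, U4, is at 2.04 while U5 and U16 are at 0.30 and 0.50.

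The EDL, a fast muscle of the shin, was taken from the same 6 rats, and 113 of the rises and 40 of the falls could be tested there. None of them was called in EDL, and neither was any other of the 9343 tested peaks by edgeR's quasi-likelihood test, with 1294 at an unadjusted p under 0.05. This count is given for edgeR only, and in soleus DESeq2 called 400 peaks where edgeR called 163. The study used DESeq2, counted a gene when at least 1 of its peaks passed, and reported differentially expressed genes in recovering EDL. In EDL, 112 of the 113 rises and 36 of the 40 falls had the same sign as in soleus. Of all 9236 peaks tested in both muscles, 71.7% did. The EDL medians were 1.46 and −0.76 on the log2 scale, against 1.77 and −1.59 for the same peaks in soleus, where they had been chosen. By library, the EDL medians of the rises differed (log2(CPM + 1) minus the EDL control mean). At R3 they were 2.04 (U4), 0.30 (U5) and 0.50 (U16). During unloading they were 0.57 to 0.82 (D1), 0.28 to 1.14 (D3) and 0.52 to 0.68 (D7), so U5 and U16 did not stand above the unloaded libraries. All 3 EDL R3 libraries were above all EDL controls in 43 of the rises (38.1%, against 10.1% of all EDL peaks) and below them in 18 of the falls (45%, against 11.4%). Library U4 moved most. It was above all controls in 107 of the 113 rises (94.7%, against 33.5% of all EDL peaks), while U5 was in 58 (51.3%, against 27.9%) and U16 in 76 (67.3%, against 26.9%). In the 40 falls, U4 was below all controls in 30 (39.3% of all EDL peaks), U5 in 23 (28.3%) and U16 in 26 (29.6%). Both muscles of a rat share the animal. They also largely share the lane split: the controls of both muscles were in lane 1, and both muscles of U5 and U16 were in lane 5. Whether animal or lane has a part in the shared sign was not tested. Without U4, both other libraries were above all controls in 46 rises (40.7%, against 13.5% of all EDL peaks).

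The EDL controls were all in lane 1, so R3 could not be compared with control within a lane in EDL either. Lane 6 held the R3 library of U4 and an unloaded library each of D1, D3 and D7, which were compared instead. The R3 library was above all 3 in 88 of the 113 rises (77.9%, against 25.6% of all EDL peaks) and below all 3 in 12 of the 40 falls (30%, against 25.7%). This rests on 1 R3 library, the one that moved most, and has no replicate check. The soleus library of the same rat helped to choose these peaks, and it was the highest R3 library in 88 of the 120 rises. The counts in this EDL library are therefore not separate from the choice of the peaks. The lane also held 2 R7 libraries, U13 and U19. Their medians over the rises, as log2(CPM + 1) minus the EDL control mean, were 0.21 and 0.18, below the 0.59 to 1.14 of the unloaded libraries and the 2.04 of U4.

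The change at R3 was not shown to differ between the muscles for any peak. In edgeR's quasi-likelihood test of the interaction, 0 of 9945 peaks passed, with 315 at an unadjusted p under 0.05, and DESeq2 also gave 0. Without animal U7, the peak chr1:256955581-256955969 on the plus strand passed, and without any other of the 6 animals there were 0 calls. Among the called peaks, 8 of the 120 rises and 13 of the 43 falls had an unadjusted p under 0.05 for the difference (3.17% of all peaks), with a median difference of 0.36 for the rises and −0.89 for the falls (log2 change in soleus minus that in EDL). The value for the rises depended on animal U4. Without it the median difference was 1.03, and 114 of the 120 rises had a positive difference, against 80 with it. Without 1 of the other animals the median lay between 0.078 and 0.40, and that of the falls was between −0.84 and −1.09 in all 6 fits. The peaks were called on the soleus side of this difference, so these values are a description.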

How the data were processed

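nAnT-iCAGE libraries were prepared from total RNA of soleus and EDL. The authors trimmed the reads, mapped them to Rnor_6.0, and deposited whole-number counts of tags, without normalization, per CTSS and over 9971 TSS peaks. The submitters' processing notes name Trimmomatic 0.38, BWA and HISAT2. The study's methods instead describe STAR, with reads allowed at several loci, and which aligner made these counts was not settled. Another 42 columns of normalized values were not used. Summed CTSS counts equalled the table in all 418782 values.

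Counts were fitted with edgeR 4.0.16 in R 4.3.3 (filterByExpr, TMM, quasi-likelihood test, Benjamini-Hochberg), the 7 soleus groups in 1 fit. The median biological coefficient of variation was 28.4%. DESeq2 1.42.0, limma 3.58.1 and the other settings were alternatives. SE is the fold change divided by the square root of F. Replicates are separate rats. Depth ranged from 4718621 to 22019390 tags in soleus. Tests were tried on simulated data first. Python 3.11.15 served the rest.

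Peaks were named by rule: the 12 largest rises and 12 largest falls among called peaks with separate groups and 10 CPM or more on average in either group, and the 5 smallest p-values for start usage. Other peaks given by position were picked after their values were seen. Peaks, lists and comparisons were chosen with earlier results of these data known. The gene lists and cell type markers planned for use need an annotation of Rnor_6.0 and were not used here. The animal number marks both muscles of 1 rat. Deviations of the 2 muscles from their group means correlated with r between −0.372 and 0.562 over 9238 peaks, over 0.1 in 15 of 21 rats. These values were not set against mismatched rats, and both muscles of several rats shared a lane, so they do not test the pairing.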

Additional observations from a re-analysis of the deposited data

How the results depend on the processing

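Of the 163 called peaks, all kept their direction in the fits without 1 library, with DESeq2, with voom, with both other scalings, without a filter and with thinned libraries, and 155 did with lane as a block. Every R3 library lay on 1 side of every control in all 163, so, apart from lane, these outcomes were nearly fixed in advance. The count moved to 400 with DESeq2, 795 with limma voom and sample quality weights, 103 with libraries thinned to the shallowest, 280 with no minimum fold change, 20 with all 42 libraries in a fit without lane, and 0 with lane as a block (316 peaks at an unadjusted p under 0.05). It was 0 with only the 6 libraries compared (2546) and, in an alternative chosen after seeing the data, 0 without both libraries with most single-tag positions (1828). Leaving out 1 library gave 0 to 160. The cause of these moves was not tested, except that leaving out libraries leaves fewer samples. The count was between 131 and 163 with size factors, library totals, no filter, the stricter filter and without mitochondrial peaks. Of the 163, the number also called at R7 against D7 moved from 78 to 42 with at least 10 CPM in 3 libraries, which tests fewer peaks. It moved to 4 with lane as a block in the fit of all 42 libraries, which changed the libraries as well as the lane term. Start usage gave 14 calls with neighbours joined at 20 kb, 5 at 1 kb and 1 to 10 without 1 library. The muscle difference gave 0 calls with the animal as a replicate block, as without it (315 peaks at an unadjusted p under 0.05), and 0 to 1 without 1 animal. The block can be made only between muscles, since R3 and control are different rats.

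With lane as a block, 5 named peaks changed sign: chr2:18587016-18587429 to −0.13 (SE 1.28), chr2:197813816-197813935 to 0.044 (SE 1.03), chr2:196094719-196094813 to 1.01 (SE 1.15), chr2:195405603-195405690 to 0.53 (SE 1.16) and chr4:14005725-14005874 to 0.56 (SE 1.27) on the log2 scale. Each of these values was smaller in size than its SE, so a reversal was not shown for any of them. The study's methods filtered peaks by their maximum counts, so starts of low level may not be covered. With 3 rats a group, many peaks whose groups do not overlap did not pass the test. By exact permutation, 3 against 3 libraries separate fully with a probability of 0.1 where nothing changed. A lack of overlap therefore does not by itself show a change.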
